A study of Mus musculus with 4 samples.

Results

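Neurons are built around a microtubule skeleton and a machinery for releasing transmitter, and a small set of genes encodes the parts by which the cell type is usually recognised. The genes described here are 10 of these: neurogranin (Nrgn), Gap43, the RNA-binding proteins Elavl3 and Elavl4, the stathmins Stmn2 and Stmn3, the tubulin Tubb3, the microtubule-associated protein Map2, and the synaptic proteins Snap25 and synaptophysin (Syp). In most non-neuronal cells many genes of this kind are held down by the repressor REST, which binds a DNA element called RE1 and recruits corepressors. Several of them are nevertheless transcribed at some level in cultured fibroblasts and in other dividing cells.

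The members were taken as the probes whose RefSeq accession maps to 1 of the 10 listed symbols, and all 10 genes had a probe, with 11 probes in all. Of these genes 8 were tested, among 19171 genes tested on the array. The list was selected on array signals, with the difference between OSK+Glis1 and OSK known and no stated threshold, so the members' values in that comparison are given as a description, without a test. The word "called" means only that a gene passed an adjusted p of 0.05 in limma over all 19171 genes.

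The cells were mouse embryonic fibroblasts that lack p53, and RNA was taken 5 days after retroviral transduction. One group of 2 samples received OSK, which in this field stands for Oct4, Sox2 and Klf4, and the other group of 2 samples received OSK with Glis1, a Gli-similar zinc finger factor. The labels call the cells of the first group embryonic fibroblasts and those of the second induced pluripotent cells made from them, and no sample without OSK was part of the series used here. Each sample was hybridised to 1 single-colour Agilent array, and the labels do not state whether replicates were separate cultures, so p-values reflect only how far these samples differ from each other, and that variation may be technical. The comparison asks what differs at day 5 when Glis1 is added. The Glis1 probe read -3.26 and -3.34 with OSK and -3.28 and -3.73 with OSK+Glis1, so it was not higher in the samples labelled as given Glis1. Whether that probe reads the introduced gene is not given in the labels, and each direction below is that of the groups as labelled.

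Signals are given in log2 units relative to the 75th percentile of each array, so that 0 is the level of a fairly bright probe and each unit is a doubling. Different probes bind with different strength, and levels are therefore compared only within a probe. Between 59.9% and 65.2% of an array's spots were well above background, 0 spots were saturated, and precision is limited by having 2 arrays in a group. All 15 genes of a fibroblast marker list were well above background on all 4 arrays in both groups, and 8 of the 15 fell in limma (53.3% called). The summed level of that list, in multiples of the 75th percentile, was 539 and 515 on the OSK arrays and 435 and 387 on the OSK+Glis1 arrays. In a bulk sample, fewer cells of a type and less RNA per cell cannot be told apart.

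The promoters of 3 members are shown because these genes had the largest differences among the 7 members with an entry in the RefSeq promoter table (build GRCm38.p6). Nrgn and Elavl3 were higher with Glis1 and Tubb3 was lower. Each sequence is the 250 bases before the annotated start site on the gene's own strand, from chr9:37552746-37552995 (minus strand) for Nrgn, chr9:22052024-22052273 (minus strand) for Elavl3 and chr8:123411303-123411552 (plus strand) for Tubb3. Capitals mark matches, on either strand, to a GC box, a TATA box, 1 form of the E-box and the left arm of RE1, whose letters are given after the sequences.
Nrgn: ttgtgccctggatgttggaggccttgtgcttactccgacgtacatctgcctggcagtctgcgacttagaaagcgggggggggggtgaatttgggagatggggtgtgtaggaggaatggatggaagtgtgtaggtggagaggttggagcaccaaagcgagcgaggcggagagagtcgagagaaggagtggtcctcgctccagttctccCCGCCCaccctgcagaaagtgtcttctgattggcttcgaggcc
Elavl3: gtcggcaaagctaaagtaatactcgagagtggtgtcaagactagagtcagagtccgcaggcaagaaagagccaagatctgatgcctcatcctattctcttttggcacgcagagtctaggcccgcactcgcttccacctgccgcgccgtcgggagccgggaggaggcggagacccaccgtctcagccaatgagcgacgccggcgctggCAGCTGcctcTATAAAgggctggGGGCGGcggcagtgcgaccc
Tubb3: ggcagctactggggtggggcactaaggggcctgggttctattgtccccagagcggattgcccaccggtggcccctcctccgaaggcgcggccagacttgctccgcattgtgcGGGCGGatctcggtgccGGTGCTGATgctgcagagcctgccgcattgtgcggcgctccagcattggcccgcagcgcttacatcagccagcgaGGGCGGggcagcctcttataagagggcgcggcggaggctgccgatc

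The 3 windows differ in make-up. Their GC content was 58.4% for Nrgn, 61.6% for Elavl3 and 68.0% for Tubb3, against a median of 52.4% over all 32851 promoter windows of the same length. A GC box, searched as GGGCGG, was present 1 time in Nrgn, 1 time in Elavl3 and 2 times in Tubb3, and in 32.7% of all windows. Among the 7 members with a window, Elavl3 alone had a match to the core promoter element that positions the polymerase, the TATA box, 33 bases before its start site. It was searched as TATAAA and found in 12.4% of all windows. The left arm of RE1 was matched in Tubb3, 121 bases before the start site, and in no other member window. It was searched as TTCAGCACC with 1 mismatch allowed and found in 6.8% of all windows. The right arm of the element (GGACAGCGC, 1 mismatch allowed, in 7.3% of all windows) was matched in 0 of the 10 member windows, 4 of which belong to Elavl4. The same was true of a Gli site, TGGGTGGTC, with 1 mismatch allowed (5.8% of all windows). An E-box in its general form, CANNTG, was matched 1 time in Nrgn, 2 times in Elavl3 and 0 times in Tubb3, and in 66.2% of all windows. Capitals mark only the form with the central bases fixed, CAGCTG, which is contained in the general form and was found in 13% of all windows. A match is a run of letters and does not show that a factor binds there.

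Of the 8 members tested, 2 were called higher with Glis1 (Nrgn and Elavl3) and 3 lower (Tubb3, Gap43 and Stmn3). Nrgn was well above background only on the OSK+Glis1 arrays, so its call rests partly on background signal. Across all genes tested 14.2% were called, 6.05% higher and 8.17% lower. The arrays of the groups did not overlap for all 8 tested members, 4 of them higher and 4 lower, as for 59.9% of all genes tested. The median difference was -0.34 over the 8 members and 0.05 over all genes. Since this comparison was known when the genes were listed, nothing is read from these counts.

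**Figure D1:**
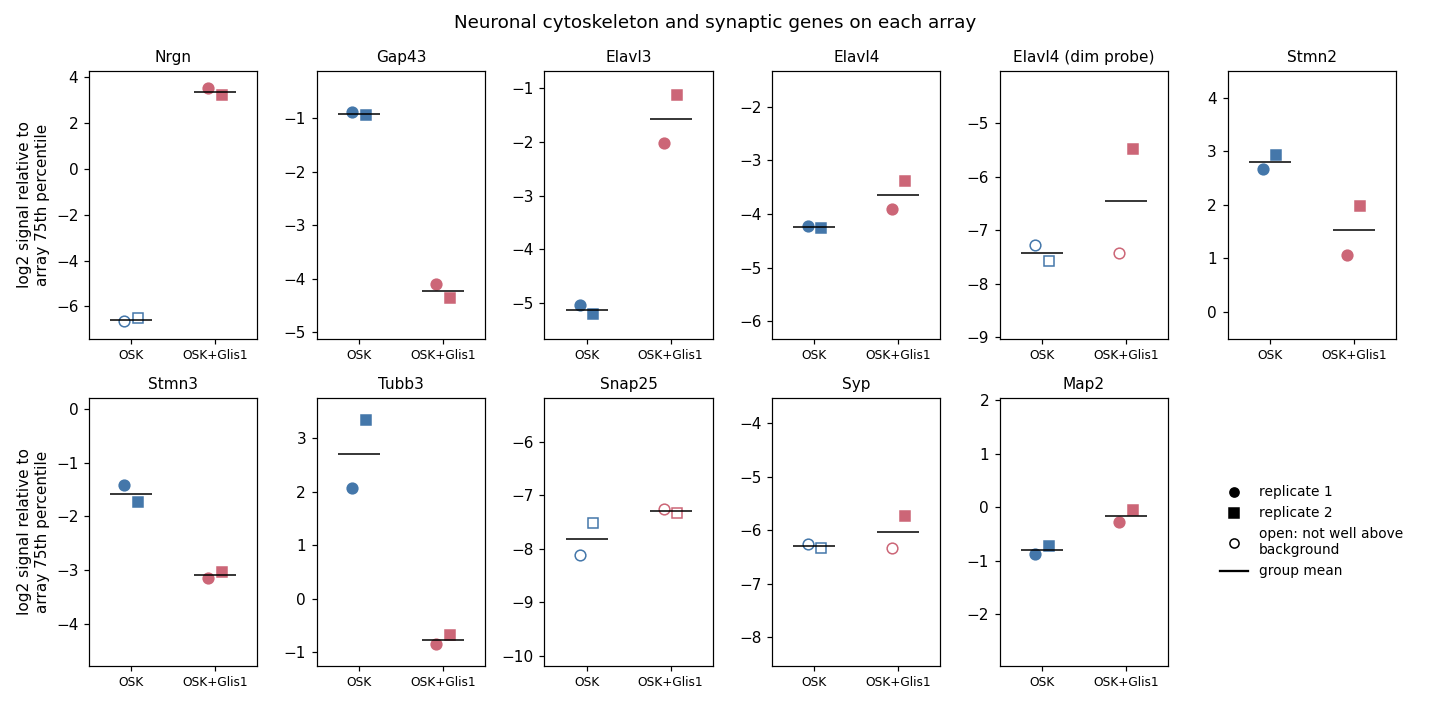
Signal of each member on each array, in log2 units relative to the array's 75th percentile (each panel has its own vertical range of at least 5 units), with circles for replicate 1, squares for replicate 2, open symbols where the probe was not well above background and lines at the group means. Nrgn read -6.65 and -6.51 with OSK and 3.53 and 3.24 with OSK+Glis1, whereas Snap25 was not well above background on any of the 4 arrays.

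Nrgn and Gap43 belong to the same family of protein kinase C substrates, which bind calmodulin at low calcium through a shared motif. Neurogranin works on the receiving side of the synapse, in dendritic spines, and Gap43 in growing axon tips. On the OSK arrays the Nrgn probe read -6.65 and -6.51 and was not well above background on either. On the OSK+Glis1 arrays it read 3.53 and 3.24. In the scanner's processed intensity units these were 9.49 and 7.33 against 9750 and 8970. Both OSK+Glis1 arrays thus carried a bright spot where both OSK arrays had none above background. The fitted log2 difference was 9.96 ± 0.19 (SE), but this value and its SE rest on background signal in the OSK group. Taking the dim group at the lowest signal that counts as well above background, Nrgn was at least 616-fold higher with Glis1.

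Gap43 went the other way. It read -0.88 and -0.95 with OSK and -4.10 and -4.35 with OSK+Glis1, all well above background. The groups lay far apart and the arrays within a group differed by little. The log2 difference was -3.31 ± 0.18 (SE), a 9.93-fold lower signal with Glis1. The differences of these related genes thus had opposite signs.

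The Elavl genes encode the Hu proteins, which bind AU-rich elements in messenger RNA, and Elavl3 (HuC) and Elavl4 (HuD) are the neuronal forms. Elavl3 read -5.04 and -5.22 with OSK and -2.01 and -1.12 with OSK+Glis1. All 4 signals were well above background, and the OSK+Glis1 arrays were also the more variable pair (SD 0.63, n = 2, against 0.13). The log2 difference was 3.56 ± 0.33 (SE), or 11.8-fold. With OSK replicate 2 left out, Elavl3 was not called (log2 difference 3.47).

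Elavl4 was measured by 2 probes. The brighter read -4.23 and -4.27 with OSK and -3.91 and -3.38 with OSK+Glis1, a log2 difference of 0.60 ± 0.23 (SE) that was not called. The dimmer was well above background on OSK+Glis1 replicate 2 alone, where it read -5.48, against -7.43 on OSK+Glis1 replicate 1. Both probes were thus highest on the same array. The ubiquitous relative Elavl1 (HuR) read 3.39 and 3.94 against 3.33 and 3.31, and the third neuronal form Elavl2 read -1.02 and -0.79 against -1.63 and -1.95 (log2 difference -0.89 ± 0.20 SE, limma adjusted p = 0.0533). Elavl2 was called lower with flagged local backgrounds replaced (limma adjusted p = 0.0377) and over probes well above background on all 4 arrays (0.0457).

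Stathmins bind tubulin dimers and promote the shortening of microtubules. Stmn2 (SCG10) is enriched in growth cones and Stmn3 (SCLIP) is a close relative. Stmn2 read 2.67 and 2.94 with OSK and 1.07 and 1.98 with OSK+Glis1. Its groups did not overlap, but OSK+Glis1 replicate 2 lay closer to OSK replicate 1 than to the other OSK+Glis1 array, and the log2 difference of -1.28 ± 0.35 (SE) was not called. It was called with OSK+Glis1 replicate 2 left out (-1.74) and with the replicate number as a block (-1.28). Stmn3 read -1.42 and -1.73 with OSK and -3.16 and -3.04 with OSK+Glis1, a log2 difference of -1.53 ± 0.19 (SE) or 2.88-fold lower. That call was lost when replicate 1 of either group was left out (-1.37 without the OSK array, -1.47 without the OSK+Glis1 array). Stmn1, the widely expressed stathmin of dividing cells, read 6.37 and 6.49 against 6.75 and 6.92, and Stmn4 read -3.34 and -4.00 against -4.08 and -4.82. Neither relative was called (limma adjusted p = 0.211 and 0.236).

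Tubb3 encodes the beta-tubulin isotype used as a marker of young neurons. Its probe was printed 10 times on each array, so the measuring error within an array can be seen. The mean of the 10 spots was 2.07 and 3.35 on the OSK arrays and -0.85 and -0.68 on the OSK+Glis1 arrays. The SD between spots of 1 array was 0.05 to 0.09. The spots ran from 2.01 to 2.21 on OSK replicate 1 and from 3.30 to 3.46 on OSK replicate 2, so the OSK samples differed from each other by far more than spot error. Both OSK arrays lay above both OSK+Glis1 arrays all the same. The log2 difference was -3.47 ± 0.44 (SE), an 11.1-fold lower signal with Glis1, and leaving out OSK replicate 2 gave -2.84, leaving out OSK replicate 1 -4.11.

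**Figure D2:**
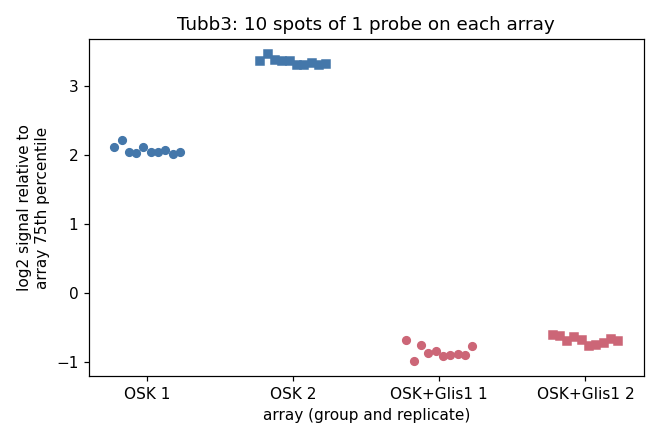
The 10 spots of the Tubb3 probe on each of the 4 arrays, in log2 units relative to the array's 75th percentile. Spots of 1 array lie close together (SD 0.05 to 0.09), while the array means are 2.07 and 3.35 with OSK and -0.85 and -0.68 with OSK+Glis1.

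Other tubulins gave no call. Of 13 tubulin genes tested 0 were called in limma, with a median log2 difference of -0.01. Their summed level was 582 and 780 with OSK and 641 and 668 with OSK+Glis1, and the groups overlapped. Tubb2a read 6.87 and 7.09 against 6.94 and 7.01, Tubb2b 2.71 and 2.42 against 2.11 and 2.60, and Tubb6, an isotype of fibroblasts, 5.09 and 5.52 against 5.31 and 5.12. The signs of these 3 differences changed with the scaling or with an array left out.

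Map2 stabilises microtubules in dendrites. It read -0.88 and -0.72 with OSK and -0.27 and -0.05 with OSK+Glis1. The groups did not overlap, and the log2 difference of 0.64 ± 0.18 (SE), or 1.56-fold, was not called. Among 20 other microtubule-associated and kinesin genes 2 rose and 3 fell (25% called, against 14.2% of all genes), with a median of -0.42. Dpysl4, a collapsin response mediator, rose by 2.65 ± 0.20 (SE) log2 units, or 6.25-fold (limma adjusted p = 0.00332). Doublecortin (Dcx), a microtubule protein of migrating neurons, rose 5.48-fold (2.46 ± 0.23 SE) and was well above background on 1 of the OSK arrays. The Dcx fold and SE thus rest partly on background signal, and its p-value is not given. Map6 fell 3.25-fold, the kinesin Kif21b 3.05-fold and Map1a 2.20-fold. The calls of Map6 and Kif21b were lost without either OSK array in turn, that of Kif21b also without OSK+Glis1 replicate 1, and that of Map1a without any 1 of the 4 arrays. Map1a was also not called after centring on the median, with quantile normalization or in the deposited values. Tau (Mapt) read 2.74 and 1.97 against 1.5 and 1.49 and Map1b -2.27 and -2.07 against -2.70 and -2.52, neither called (limma adjusted p = 0.136 and 0.199).

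Snap25 and Syp are parts of the release machinery, Snap25 as a SNARE protein that drives fusion of the vesicle with the membrane and Syp as a vesicle membrane protein. Neither was tested. The Snap25 probe read -8.12 and -7.51 with OSK and -7.26 and -7.34 with OSK+Glis1, not well above background on any array. The Syp probe read -6.26 and -6.34 with OSK and -6.33 and -5.73 with OSK+Glis1, and it was well above background on OSK+Glis1 replicate 2 alone. The Syp groups overlapped, and neither probe gives a usable fold. Fitted without a filter on dim probes, the log2 differences were 0.51 ± 0.29 (SE) for Snap25 and 0.27 ± 0.29 (SE) for Syp. The widely expressed relatives were bright, Snap23 at 1.07 and 1.00 against 1.02 and 0.92 and Sypl at 1.62 and 1.83 against 1.63 and 1.53, and they were not called (limma adjusted p = 0.838 and 0.658).

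The genes around these members were taken from lists of neuronal genes that hold none of the 10. In 9 such lists, 134 of 175 genes were tested, and 16 rose and 18 fell. The share called was 25.4%, against 14.2% of all genes, and the median difference was -0.20. These lists and those below were written with earlier results of these data known, so nothing is read from their shares. When either OSK array was left out, fewer of these neuronal genes were called, and fewer of all genes as well.

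**Figure D3:**
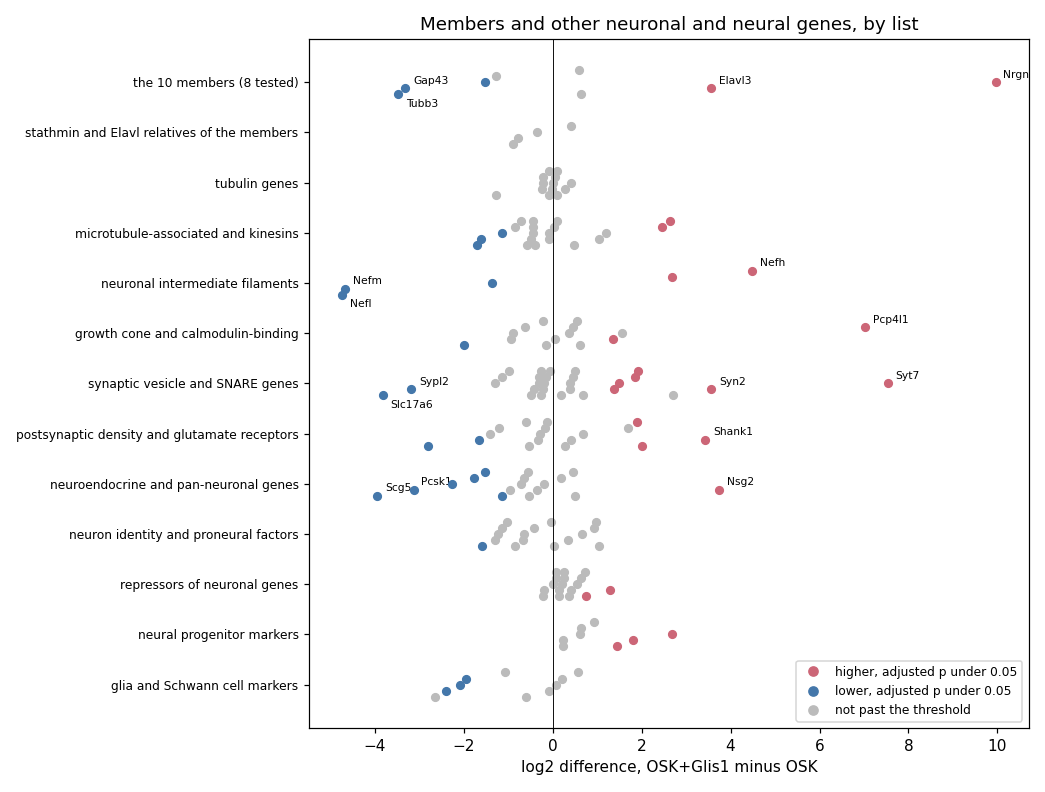
Log2 difference between OSK+Glis1 and OSK for each tested gene of the members and of 12 lists of neuronal and neural genes, with red for genes called higher, blue for genes called lower and grey for the rest; names are given for called genes that differ by more than 3 units. The intermediate filament list holds 2 genes called higher and 3 called lower, and the tubulin list holds 0 called genes.

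The intermediate filament genes, among them the neurofilaments that fill axons and set their calibre, were all called: of 5 tested, 2 rose and 3 fell. The light neurofilament Nefl read 4.96 and 5.54 with OSK and -0.40 and 1.42 with OSK+Glis1. The fall was 26.7-fold, or -4.74 ± 0.64 (SE) in log2 units (limma adjusted p = 0.0125). The medium neurofilament Nefm read -1.42 and -0.99 against -6.09 and -5.65, well above background on 1 OSK+Glis1 array, and fell 25.4-fold (-4.67 ± 0.26 SE). The Nefm fold and SE rest partly on background signal, and its p-value is not given. The heavy neurofilament Nefh went up instead, from -7.44 and -7.43, not well above background, to -2.36 and -3.54. That is a rise of at least 7.65-fold. The fitted difference rests on background signal in the OSK group, so its p-value is not given. Under normexp on the backgrounds as given, the Nefh log2 difference was 0.12 ± 1.48 (SE). Nestin (Nes), the filament of neural progenitors and of many other dividing cells, rose 6.39-fold, and peripherin (Prph) fell 2.57-fold. Without either OSK array in turn the calls of Nefl, Nefh and Prph were lost, that of Prph also without OSK+Glis1 replicate 1, and that of Nes was lost without OSK replicate 1.

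Of 14 genes listed under growth cones and calmodulin binding, 2 rose and 1 fell (21.4% called). Pcp4l1, which has an IQ motif as neurogranin and Gap43 do, read -2.77 and -2.43 with OSK and 5.01 and 3.84 with OSK+Glis1. The rise was 130-fold, or 7.03 ± 0.42 (SE) in log2 units (limma adjusted p = 0.0025). The adhesion molecule L1cam was at least 1.46-fold higher, a call lost without either OSK array or without OSK+Glis1 replicate 1. It was also lost with flagged local backgrounds replaced (log2 difference 0.43). Gprin1 read -3.86 and -4.10 with OSK and -5.89 and -6.04 with OSK+Glis1, the latter not well above background. Gprin1 was at least 3.96-fold lower, a bound that equals its fitted fold. Basp1, a growth cone protein with properties like those of Gap43, read -2.05 and -2.23 against -2.19 and -2.55 (limma adjusted p = 0.542).

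Among 28 vesicle and SNARE genes 6 rose and 2 fell (28.6% called). The calcium sensor Syt7, which works in neurons and in the exocytosis of other cells, read -4.30 and -4.64 with OSK and 3.44 and 2.68 with OSK+Glis1, a 185-fold rise (log2 difference 7.53 ± 0.31 SE, limma adjusted p = 0.00225). The neuronal sensor Syt1 read -1.21 and -2.15 against -2.96 and -2.97 and was not called (limma adjusted p = 0.0786), though it was called without OSK replicate 2 (0.038). Of the synapsins, which tether vesicles, Syn2 was at least 4.11-fold higher and Syn3 rose 3.77-fold, and the vesicle protein Sv2a rose 3.59-fold. The vesicular glutamate transporter Slc17a6 fell 14.1-fold and the synaptophysin relative Sypl2 9.03-fold. Sypl2 was well above background on 1 OSK+Glis1 array, so its fold rests partly on background signal. The calls of Syn2, Slc17a6, Sypl2 and Sv2a were lost without either OSK array in turn, that of Sv2a also without OSK+Glis1 replicate 1.

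On the receiving side of the synapse, 3 of 17 tested genes rose and 2 fell (29.4% called, against 14.2% of all genes). The scaffold gene Shank1 was at least 4.14-fold higher, Shank3 rose 3.74-fold and the glutamate receptor subunit Gria1 4.01-fold. The scaffold Dlg4 (PSD-95) was at least 3.82-fold lower and the adhesion gene Nlgn3 fell 3.15-fold. The calls of Shank3, Gria1 and Nlgn3 were lost without either OSK array or without OSK+Glis1 replicate 1, and that of Dlg4 when replicate 2 of either group was left out. With flagged local backgrounds replaced, Dlg4 was not called either (log2 difference -1.63).

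Among 17 secretory and pan-neuronal genes 1 rose and 6 fell (41.2% called). Scg5, a chaperone of prohormone convertase, fell 15.4-fold (-3.94 ± 0.17 SE in log2 units, limma adjusted p = 0.00225). The convertase Pcsk1 fell 8.72-fold and the surface protein Thy1, present on neurons and fibroblasts, 3.43-fold. Pcsk1 was well above background on 1 OSK+Glis1 array, so its fold rests partly on background signal. The endosomal protein Nsg2 rose 13.4-fold (3.75 ± 0.46 SE, limma adjusted p = 0.00995). The calls of Pcsk1 and Nsg2 were lost without either OSK array in turn.

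Of 27 listed factors that specify neurons, 16 were tested, and 0 rose and 1 fell (6.25% called, against 14.2% of all genes). The gene that fell was Ebf3, by 3.02-fold (limma adjusted p = 0.00851). These counts moved with the setting: 3 were higher and 1 lower in the deposited values, 2 and 1 after centring on the median, 0 and 2 with the replicate number as a block, and 0 and 3 with OSK+Glis1 replicate 1 left out. Rbfox3 (NeuN), the marker of mature neurons, read -5.49 and -5.82 against -4.95 and -5.05 and was not called. It was well above background on 1 OSK array, so its difference rests partly on background signal. With quantile normalization and in the deposited values Rbfox3 was called higher, with the same limit. Of the 6 neuron markers Rbfox3, Syt1, Nefl, Nefm, Mapt and Dcx, the summed level was 38.6 and 51.3 with OSK and 3.88 and 5.78 with OSK+Glis1. Without Nefl it was 7.52 and 4.69 against 3.12 and 3.1. Such a sum follows its brightest probe, here Mapt, whose log2 difference of -0.86 ± 0.29 (SE) was not called. Of the remaining markers, Dcx and Rbfox3 read higher with OSK+Glis1 and Syt1 and Nefm lower, so the sums do not describe the markers as a set.

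The repressors of neuronal genes were measured well, with 17 of 17 tested genes above background on all 4 arrays. Rest read 0.51 and 0.35 with OSK and 0.81 and 1.16 with OSK+Glis1 and was not called (log2 difference 0.56 ± 0.20 SE, limma adjusted p = 0.153). Its corepressor Rcor2 rose 2.44-fold (limma adjusted p = 0.0383) and Sin3b 1.68-fold (0.0494). These were the only calls among the 17, or 11.8%, below the 14.2% of all genes. Leaving out OSK replicate 2 or either OSK+Glis1 array removed the Rcor2 call. The Sin3b call was lost without any 1 array, with quantile normalization and as the mean over probes. The splicing repressors Ptbp1 and Ptbp2, whose exchange accompanies neuronal differentiation, read 3.65 and 4.04 against 3.93 and 3.92, and 0.13 and 0.50 against 0.06 and 0.17 (limma adjusted p = 0.833 and 0.586).

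Markers of other neural cells were listed as well. Of 8 tested progenitor markers 3 rose and 0 fell (37.5% called, against 14.2% of all genes). The 3 were Nes, Pax6, at least 3.45-fold, and Fabp7, 2.73-fold. The Fabp7 call was lost when OSK replicate 2 or either OSK+Glis1 array was left out. The summed level of the progenitor markers was 14.6 and 15.4 with OSK and 59.1 and 42.3 with OSK+Glis1. Without Nes it was 10.4 and 9.38 against 18.8 and 16.4. Of 10 tested glial and Schwann cell markers 3 fell and 0 rose (30% called). Among them S100b fell 5.30-fold and Slc1a3 4.24-fold. The summed levels of the glial list were 7.35 and 7.12 against 6.32 and 6.05. The glial genes Olig1, Olig2 and Erbb3 and the progenitor gene Pax3 were not well above background on any array. The S100b call was lost without either OSK array in turn. The part of these cell type markers in the members' values was not tested.

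By gene order in RefSeq (GRCm38.p6), the 3 nearest protein-coding genes on each side of the 10 members were looked up, a choice made after the values of Nrgn were seen. Of these 60 genes 44 were tested, and 6 were called higher and 3 lower (20.5%, against 14.2% of all genes). Vsig2 and Spa17, on either side of Nrgn, read -3.98 and -3.55 against -3.69 and -3.87, and -3.45 and -3.90 against -2.76 and -2.25, and were not called (limma adjusted p = 0.981 and 0.0558). Beyond them the endothelial adhesion gene Esam rose 4.35-fold (limma adjusted p = 0.00596) and the esterase gene Siae 2.32-fold (0.0432), the latter a call lost without any 1 of the 4 arrays. Around Tubb3, the adjacent genes Mc1r and Def8 were not called (limma adjusted p = 0.924 and 0.928), and Spire2, which lies further out and encodes an actin nucleator, fell 3.25-fold (0.0305), a call lost without either OSK array or without OSK+Glis1 replicate 2.

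**Figure D4:**
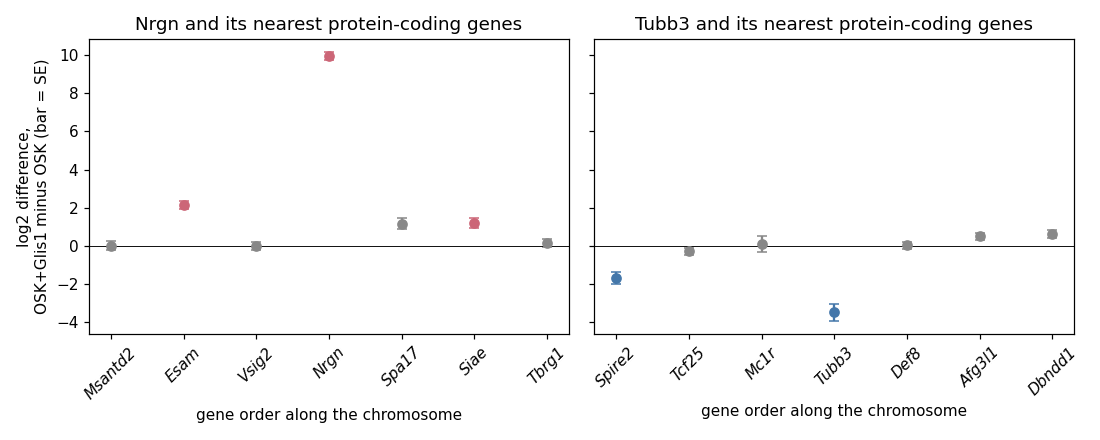
Log2 difference between OSK+Glis1 and OSK, with SE, for Nrgn and Tubb3 and the 3 nearest protein-coding genes on each side, in the order of the genes; red and blue mark genes called higher and lower. Nrgn at 9.96 and Tubb3 at -3.47 lie apart from their neighbours, the largest of which are Esam at 2.12 and Spire2 at -1.70. The value and SE of Nrgn rest on background signal in the OSK group.

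The genes whose 4 centred values lay nearest to those of a member were also named, by Euclidean distance over the 4 arrays. For Nrgn these were Dcpp1, Dcpp2 and Cpsf4l. The Nrgn probe was not well above background on either OSK array. The choice of these genes and their distances thus rest partly on background signal, and the distances are not given. The probes of Dcpp1 and Dcpp2 were also not well above background on either OSK array. Their signals were at least 692-fold and at least 190-fold higher with Glis1. Cpsf4l was well above background on all 4 arrays and was 470-fold higher. Dcpp1 and Dcpp2 are near-identical copies, and their probes may read each other's transcripts. For Tubb3 the nearest were Alox15, Akr1c18 and Krt90. Akr1c18 (distance 0.48) was measured on all 4 arrays and was 9.37-fold lower. Alox15 and Krt90 were not well above background on either OSK+Glis1 array, and were at least 2.92-fold and at least 7.54-fold lower. With 4 arrays this is a description only.

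**Figure D5:**
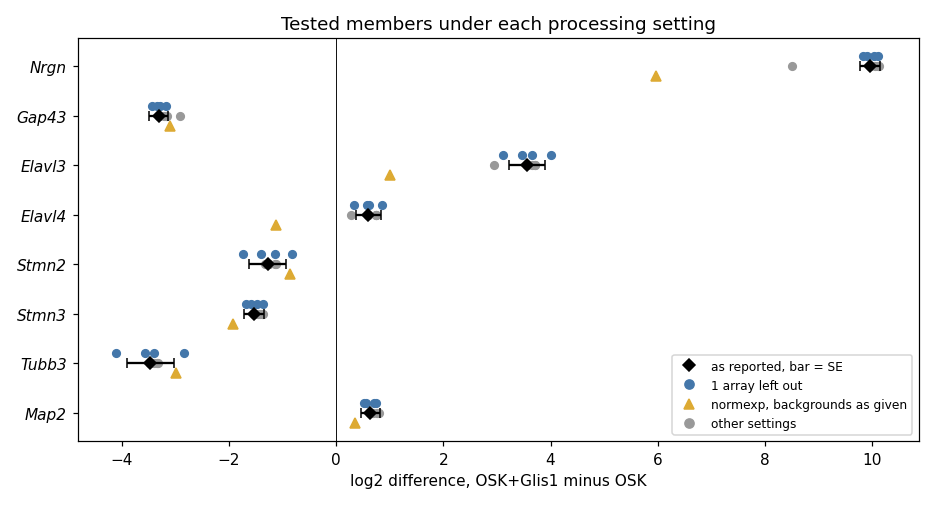
Log2 difference between OSK+Glis1 and OSK for the 8 tested members as reported (diamonds, bars are SE), with 1 array left out (blue), with normexp on the backgrounds as given (triangles) and under the other settings (grey). The sign of each difference held under every setting shown except that of Elavl4 under normexp on the backgrounds as given, where it was -1.13. The values and SE of Nrgn rest on background signal in the OSK group.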

How the data were processed

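Total RNA of 4 samples was hybridised to single-colour Agilent arrays on 1 slide. The deposited scanner tables hold intensity values from Feature Extraction 10.7.3.1, background-subtracted, per the file headers, with no scaling across arrays. The authors also deposited a log2 table, and how it was made is not stated in the labels. By comparison with the scanner tables it is the log2 of a probe's mean processed signal minus 1 constant per array, with 99.8% of probes within 0.01 on each array; the medians of its 4 columns lie between -0.00016 and 0.000216. Scale, centring and direction are thus known.

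The log2 processed signal minus the array's 75th percentile (951 and 669 units for OSK, 844 and 949 for OSK+Glis1) was used. Control spots and outlier spots were left out and spots of 1 probe averaged. A probe was kept if both arrays of at least 1 group read it well above background. Symbols came from RefSeq (GRCm38.p6) through accessions, for 26933 of 41174 probes, and the brightest probe stood for a gene. The fit was limma 3.58.1 in R 4.3.3 (lmFit, eBayes, two-sided, Benjamini-Hochberg over 19171 genes), with 2 residual and 2.82 prior degrees of freedom, and was tested on simulated data. "At least" folds use the lowest well-above-background signal of each dim array, or the probe's own signal there if that was higher. The members and lists were chosen with earlier results of these data known. All members were named, and in each list up to 4 called genes in each direction, besides relatives of members and defining markers. Some genes that this rule names are not reported here. The labels name no pairing of same-numbered samples. The correlation of their deviations over genes was 0.009, which with 2 arrays per group does not settle whether they were paired.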

Additional observations from a re-analysis of the deposited data

How the results depend on the processing

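The direction of the called members Nrgn, Gap43, Elavl3, Stmn3 and Tubb3 held under the 13 alternatives, apart from Nrgn over probes well above background on all 4 arrays, where it drops out. Normexp on the spot and local background medians left 0 genes called in all, 0 higher and 0 lower members and 0 and 0 neuronal list genes (limma, with 1479 genes at an unadjusted p under 0.05). There were 6 spots on OSK replicate 2 with local backgrounds over 1000 units, and with flagged backgrounds replaced the counts were 1260 higher and 1754 lower; mean spot signals were not in the tables, so medians were used. Under normexp as given these differences changed sign: Elavl4 (-1.13), Dcx (-0.31), L1cam (-1.68), Pax6 (-0.87), Rbfox3 (-1.57), Shank1 (-0.63), Shank3 (-0.14), Sv2a (-0.43), Syn2 (-0.60), Syn3 (-0.34), Esam (-0.41), Elavl1 (0.07), Snap23 (0.10), Sypl (0.12), Tubb2a (0.45), Tubb2b (0.12) and Tubb6 (0.38). Small differences near 0 also did so elsewhere: with each array centred on its median Snap23 (0.07), Tubb2a (0.13) and Tubb6 (0.05), in the deposited log2 table Snap23 (0.09), Sypl (0.01), Tubb2a (0.14) and Tubb6 (0.06), and Tubb2a with quantile normalization (0.01), with flagged backgrounds replaced (0.01) and as the mean over probes (0.21). With 1 array left out, the ranges that cross 0 were -0.11 to 0.28 for Ptbp1, -0.45 to 0.04 for Tubb2b, -0.12 to 0.10 for Tubb2a and -0.30 to 0.13 for Tubb6.

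Over all genes 1160 were called higher and 1566 lower; without a filter on dim probes 554 and 950, and with 1 array left out 449 to 786 and 664 to 1093. The share of calls that were higher was 42.6%, against 54.4% in the deposited table and 53.1% after centring on the median; the median difference of all genes was 0.05, 0.21 and 0.19 in that order. Members called higher numbered 1 over probes well above background on all 4 arrays, and 1 to 2 with 1 array left out, when 2 to 4 were lower. The neuronal list genes then numbered 6 to 19 higher and 6 to 15 lower. With the replicate number as a block 1111 and 1543 genes were called, 2 members higher and 4 lower; Stmn2 was gained, and the list genes Map1a (-1.14, limma adjusted p = 0.0541) and Sin3b (0.75, 0.0923) were lost. No other named gene changed its call under the block. Without a filter on dim probes the calls of Dlg4, Fabp7, Gria1, Kif21b, L1cam, Map1a, Nlgn3, Prph, Rcor2, Shank3, Siae, Sin3b, Spire2 and Sv2a were lost. Dim probes such as those of Snap25 and Syp limit what can be seen.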
